A study of Homo sapiens with 4 samples.

Results

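YAP1, WWTR1 (the gene of TAZ), TEAD1, TEAD2, TEAD3, TEAD4 and VGLL4 encode the transcription machinery at the end of the Hippo pathway, and they were taken by gene symbol as 7 of the 14431 genes in the deposited table. RNA was sequenced from HGC27, a human gastric carcinoma cell line of wild-type genotype per the labels, in 2 control libraries and 2 libraries of cells that received siRNA against AARS1 (siAARS1). AARS1, listed as AARS, encodes cytosolic alanyl-tRNA synthetase, which joins alanine to its tRNA. Both groups were cultured in DMEM free of glucose and received 25 mM lactate, for 24 h per the labels. The text of the study gives another duration, so the time is uncertain. No library without lactate was analysed here. The comparison asked how these cofactor and TEAD transcripts differed after knockdown of AARS1 in cells given lactate, and whether the TEAD paralogs moved together.

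The kinases of the Hippo pathway phosphorylate the coactivators YAP and TAZ, which are then held in the cytoplasm or degraded. Without this phosphorylation YAP and TAZ enter the nucleus and bind TEAD proteins, which carry the DNA-binding domain that YAP and TAZ lack. VGLL4 binds TEAD proteins at the same surface as YAP and TAZ and opposes them. In gastric cancer this machinery is known as a driver of growth genes such as CTGF and CYR61.

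The coding sequences around the lysine codons that are the lactylation sites of interest in YAP and TEAD1 are shown here, because they show which paralogs carry the same codon. Each stretch holds 45 bases of a coding transcript in GENCODE release 29 (GRCh38), 5′ to 3′ on the strand of the gene, with the codon at the site or at the aligned place in capitals. Codons are counted from 1 at the first codon. The TEAD1 stretch is centred on codon 108 and lies in exons 5 and 6 (chr11:12864871-12879722, plus strand).
TEAD1 codon 108: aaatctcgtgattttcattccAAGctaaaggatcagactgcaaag
TEAD2 codon 118: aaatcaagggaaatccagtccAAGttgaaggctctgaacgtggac
TEAD3 codon 108, transcript with lysine: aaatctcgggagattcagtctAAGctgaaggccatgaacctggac
TEAD3 codon 108, transcript without lysine: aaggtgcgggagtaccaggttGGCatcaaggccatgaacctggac
TEAD4 codon 116: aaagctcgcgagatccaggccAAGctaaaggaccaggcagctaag
The AAG lysine codon was present in TEAD2 (chr19:49355417-49357281, minus strand), in TEAD4 (chr12:3012203-3017412, plus strand) and in 1 of the TEAD3 transcripts (chr6:35478569-35480089, minus strand). The other TEAD3 transcript of the same coding length used another exon here (chr6:35478569-35480341) and had a GGC codon. TEAD4 shared 34 of the 45 bases with TEAD1, TEAD2 shared 28, and the TEAD3 transcripts shared 28 and 17. The deposited values are per gene and do not separate these transcripts.

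The YAP1 stretch, in its TEAD-binding region, lies in exon 1 (chr11:102111095-102111139, plus strand), and the aligned stretch of WWTR1 lies in exon 2 (chr3:149657145-149657189, minus strand).
YAP1 codon 90: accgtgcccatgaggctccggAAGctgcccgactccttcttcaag
WWTR1 codon 47: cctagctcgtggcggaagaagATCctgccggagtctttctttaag
WWTR1 had an ATC codon where YAP1 had AAG, with AAG lysine codons directly before it, and it shared 24 of the 45 bases. Over whole coding sequences, the longest identical run between TEAD paralogs was 14 bases for TEAD1 and TEAD2 and 56 bases for TEAD3 and TEAD4. It was 21 bases for YAP1 and WWTR1. How the authors placed reads that match 2 paralogs is not stated.

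Depth was 30653210 to 33522573 reads per library over the listed genes, as recovered from the CPM values (reads scaled to the size of the library), and each of the 7 genes had 767 to 5250 reads in each library. AARS had 428 and 417 CPM in the controls and 292 and 298 CPM with siAARS1, 69.7% of the control mean. Of markers of other cells, the fibroblast genes COL1A1, DCN and LUM were all listed (118 to 2399 CPM over the libraries), and CD68 was the only listed one of 3 immune and 3 endothelial genes (0.486 to 1.10 CPM). None of the 6 gastric epithelial markers and 2 of the 5 epithelial markers were listed, while of 3 mesenchymal genes VIM (4600 to 5131 CPM) and FN1 (51.7 to 75.4 CPM) were listed and CDH2 was not, so the markers did not show a gastric epithelial identity. Of the listed markers, only CD68 had values that overlapped between the groups. Over all genes tested, 85.1% did not overlap. KRT8 went from 24.8 and 25.2 CPM in the controls to 6.61 and 5.08 CPM with siAARS1, and CDH1 from 2.55 and 1.89 to 0.680 and 1.05 CPM. VIM went from 5131 and 5068 to 4710 and 4600 CPM, and FN1 from 72.6 and 75.4 to 54.2 and 51.7 CPM. COL1A1 went from 2320 and 2399 to 1644 and 1541 CPM. In contrast, LUM went from 118 and 125 to 211 and 225 CPM, and DCN from 239 and 250 to 258 and 270 CPM. The part of any other cell type in the values below was not tested.

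Of the 7 genes, 3 rose (TEAD1, YAP1 and WWTR1), 3 fell (TEAD2, TEAD3 and VGLL4) and TEAD4 did not pass the test, so 6 were called at an adjusted p-value under 0.05 (limma on log2(CPM + 1), Benjamini-Hochberg over all genes tested). Of all 14199 genes tested, 70.7% were called, and as shares of the genes tested 32.6% were higher and 38% were lower. A count of 6 of 7 is read against that background. The CPM values of the groups did not overlap for any of the 7 genes, and they did not overlap for 85.1% of all genes tested. TEAD1 had the largest change of the 7. The log2 fold change of TEAD1 was exceeded by 6.04% of genes, whereas that of YAP1 was exceeded by 31.8%. In these bulk samples, fewer cells that express a gene and less RNA of it per cell cannot be told apart.

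**Figure D1:**
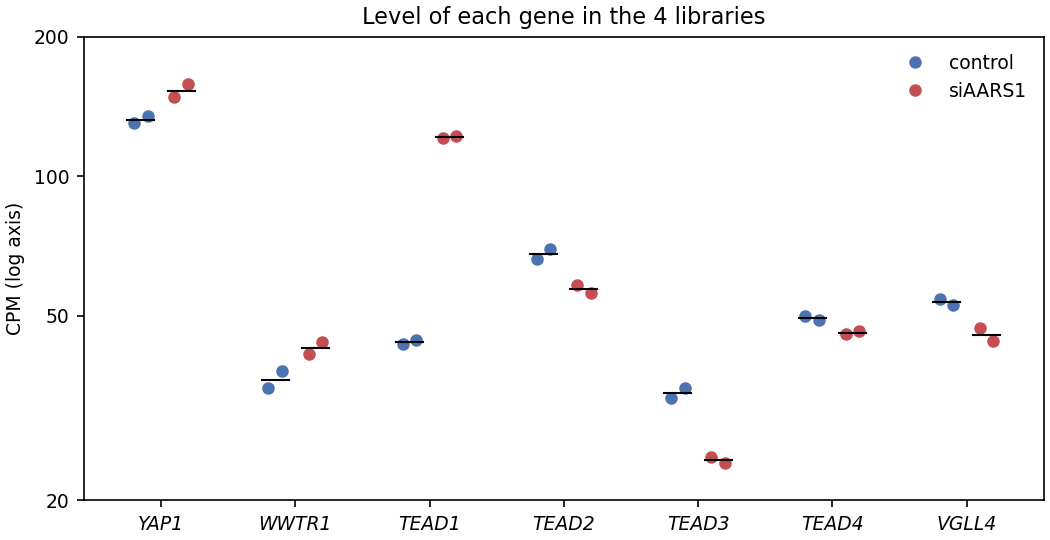
CPM of each of the 7 genes (log axis) in the 2 control libraries (blue) and the 2 siAARS1 libraries (red), with black bars at the group means. TEAD1 moved from 43.5 and 44.3 CPM to 121 and 122 CPM, while each of the other 6 genes changed by 1.39-fold or less.

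YAP1 (chr11:102110461-102233423, plus strand) encodes the coactivator at the centre of the pathway. It had 130 and 135 CPM in the controls and 148 and 158 CPM with siAARS1. Both siAARS1 values were above both control values, and the means were 132 ± 3.09 and 153 ± 6.91 CPM (SD, n = 2 each), a rise of 15.6%. The log2 fold change was 0.21 (SE 0.043, adjusted p = 0.000212 by limma). The direction turned with the processing: it was -0.02 (adjusted p = 0.678) with the libraries scaled to a common median and -0.31 (adjusted p = 3.45e-07) after the transcript correction, which takes out trends over GC content and transcript length.

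WWTR1 (chr3:149517235-149736714, minus strand) encodes TAZ, the paralog of YAP. It had 34.9 and 37.9 CPM in the controls and 41.3 and 43.9 CPM with siAARS1. The groups did not overlap, with means of 36.4 ± 2.11 and 42.6 ± 1.86 CPM (SD, n = 2 each) and a log2 fold change of 0.22 (SE 0.061, adjusted p = 0.00298 by limma). The call was lost without control replicate 1 (0.16, adjusted p = 0.0649) and without siAARS1 replicate 2 (0.18, adjusted p = 0.0508). It was also lost with median scaling (-0.0013, adjusted p = 0.985) and quantile normalization (0.055, adjusted p = 0.417), and the direction turned after the transcript correction (-0.63, adjusted p = 1.21e-08).

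TEAD1 (chr11:12674591-12944483, plus strand), the DNA-binding partner that carries the lysine codon 108 shown above, had 43.5 and 44.3 CPM in the control libraries. It had 121 and 122 CPM in the siAARS1 libraries, far above both controls. The means were 43.9 ± 0.605 and 122 ± 0.858 CPM (SD, n = 2 each), 2.77-fold higher, with a log2 fold change of 1.45 (SE 0.047, adjusted p = 4.80e-17 by limma). The rise was called in all 16 fits run on the 7 genes, with log2 fold changes from 0.32 to 1.52. Its size depended on the correction: it was 0.32 (adjusted p = 1.85e-06) after the transcript correction and 1.24 and 1.22 after the 2 region corrections, which use the coding sequence and 3′ UTR instead.

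TEAD2 (chr19:49340595-49362457, minus strand), known from embryonic and neural tissue, moved the other way. It had 66.3 and 69.7 CPM in the controls and 58.3 and 56.1 CPM with siAARS1. The siAARS1 values lay below both controls, with a log2 fold change of -0.25 (SE 0.051, adjusted p = 0.000209 by limma). The direction turned after correction, to 0.07 (adjusted p = 0.174) under the transcript correction and to 0.19 (adjusted p = 0.000271) under the first region correction. CD37, a gene on the other strand with 7.25 to 8.30 CPM, shares 10.7% of the exon bases of TEAD2. Whether the reads were counted by strand is not stated.

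TEAD3 (chr6:35473597-35497076, minus strand), known from placenta, had 33.3 and 34.9 CPM in the controls and 24.8 and 24.1 CPM with siAARS1. The groups were well apart, with means of 34.1 ± 1.18 and 24.5 ± 0.525 CPM (SD, n = 2 each) and the largest fall among the 7 genes, where the mean fell by 28.2%. The log2 fold change was -0.46 (SE 0.066, adjusted p = 2.19e-06 by limma). TEAD3 was lower in all 16 fits, but its call was lost after both region corrections (-0.09 in each, adjusted p = 0.153 and 0.169).

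TEAD4 (chr12:2959330-3040673, plus strand), known from trophoblast and often studied in gastric cancer, had 49.9 and 49.1 CPM in the controls and 45.6 and 46.4 CPM with siAARS1. Although the groups did not overlap, the log2 fold change of -0.10 (SE 0.054, adjusted p = 0.0874 by limma) did not pass the test, and its 95% interval ran from -0.22 to 0.01. TEAD4 was called higher after correction (0.24 under the transcript correction, adjusted p = 0.000295) and lower with median scaling (-0.33, adjusted p = 6.13e-06).

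VGLL4 (chr3:11556070-11771350, minus strand), the TEAD-binding antagonist of YAP, had 54.4 and 52.8 CPM in the controls and 47.0 and 44.1 CPM with siAARS1. The siAARS1 values lay below both controls, a log2 fold change of -0.23 (SE 0.055, adjusted p = 0.000788 by limma). After correction it was -0.06 (adjusted p = 0.234) under the transcript correction and 0.30 (adjusted p = 2.82e-06) under the first region correction. ATG7, on the other strand with 17.8 to 18.6 CPM, shares 22.1% of the exon bases of VGLL4. VGLL1, VGLL2 and VGLL3, related cofactors of TEAD, are not among the genes listed.

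The change of all genes between the groups moved with the GC content of their transcripts, and the 7 genes are described here beside that trend. In the quintile of genes with the lowest GC content (27.8% to 41.3%) the median log2 fold change was 0.77, and 80.3% of genes were called higher. In the quintile with the highest GC content (58.9% to 75.2%) the median was -0.30, and 67.5% were called lower. The 3 genes that rose had the lowest GC content of the 7, namely WWTR1 (40.9%), TEAD1 (41.3%) and YAP1 (43.5%). VGLL4 (52.1%), TEAD2 (58.4%), TEAD3 (59.8%) and TEAD4 (60.4%) had higher GC content, and none of these 4 was called higher. Within its own quintile, TEAD1 was exceeded by 24.2% of genes, WWTR1 by 80.0%, YAP1 by 50.3%, VGLL4 by 66.0%, TEAD2 by 51.6%, TEAD3 by 69.3% and TEAD4 by 23.9%. WWTR1 lay below the interquartile range of its quintile (0.32 to 1.42), TEAD1 (1.45) lay just above the same range, and TEAD4 lay above that of its own (-0.53 to -0.11). TEAD1 sat at the upper GC limit of its quintile, so its place depends on where the quintiles are cut. The next quintile had a median of 0.21 and an interquartile range of -0.07 to 0.62. Whether RNA quality or library preparation had a part in this trend was not tested.

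**Figure D2:**
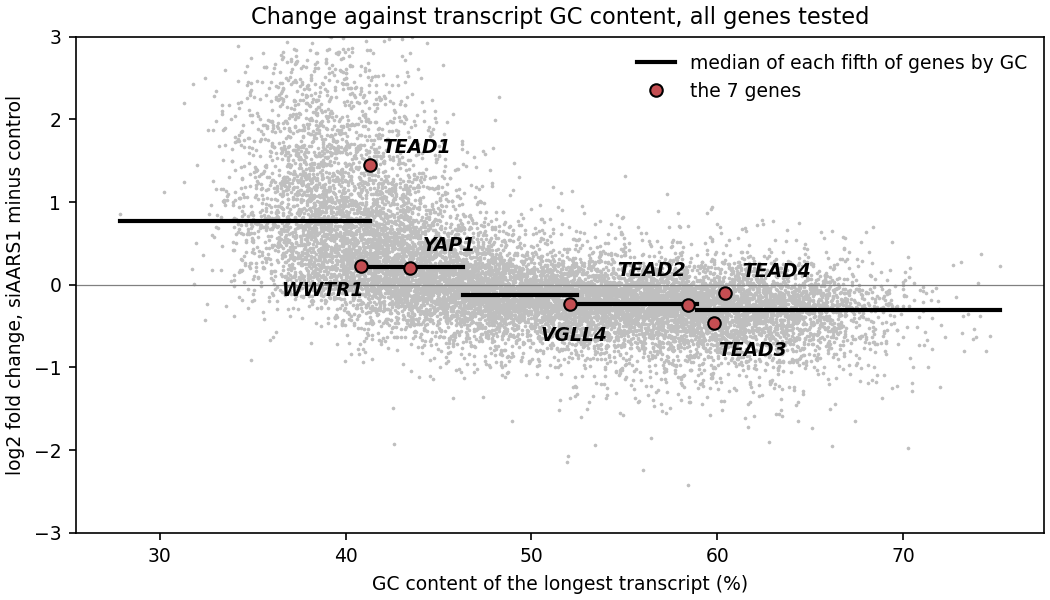
Log2 fold change (siAARS1 minus control) against the GC content of the longest transcript for 13819 genes (grey points), with black bars at the median of each GC quintile and the 7 genes in red. The medians run from 0.77 in the lowest quintile to -0.30 in the highest, TEAD1 lies above the median of its quintile, and 10 genes lie beyond the axis limits of 3.

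The transcript correction took each library's smooth trend over transcript GC content and length out of the values, and it left 5 of the 7 genes called, 2 of them in the direction seen before (TEAD1 and TEAD3). In that fit 9120 of all 13819 genes tested were called, so the count of 5 is read against that background. How many of all genes kept their call and direction was not counted, so the 2 genes have no such background. The first region correction used the GC content and length of the coding sequence and, apart from it, of the 3′ UTR in the transcript with the longest coding sequence, and the second region correction took both from the longest coding transcript. For TEAD1 the 3′ UTR of those transcripts differs greatly, 815 and 7264 bases, yet the log2 fold change was 1.24 and 1.22. For YAP1 it was 0.10 (adjusted p = 0.00750) and 0.04 (adjusted p = 0.303), and for WWTR1 0.21 (adjusted p = 0.00105) and 0.14 (adjusted p = 0.0193). Among the 7 genes, TEAD1 alone was called in 1 direction in all of the 16 fits. These fits reuse the same 4 libraries and are not independent, and the share of all genes that passed them all was not counted.

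**Figure D3:**
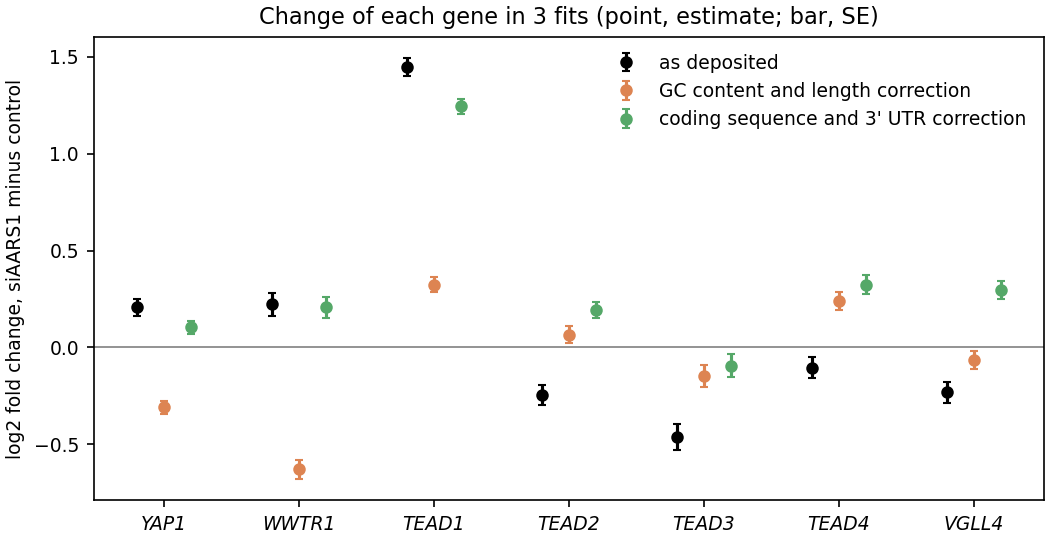
Log2 fold change (siAARS1 minus control) of each gene with its SE in 3 fits, namely values as deposited (black), after the transcript correction (orange) and after the first region correction (green). TEAD1 stayed above 0 in each (1.45, 0.32 and 1.24), while YAP1, WWTR1, TEAD2, TEAD4 and VGLL4 lay on both sides of 0.

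Whether the members moved apart was then tested directly, as the change of the log2 ratio of 2 genes in the same library, in 20 of the 21 possible pairs (TEAD4 and VGLL4 were not compared with each other). For each reference gene the ratio of every tested gene to it was fitted with limma, and the adjusted p-value covers all of those genes. All ratios to a reference share the library noise of that gene, while limma treats the genes as separate evidence on the spread. The p-values, intervals and background shares of the pairs rest on this, and p-values cannot be compared between references. The ratio changed in 17 of 20 pairs. The background was high again: 77.5% of all genes changed in their ratio to YAP1, 75.4% to WWTR1, 97.1% to TEAD1, 64.1% to TEAD2 and 77.4% to TEAD3. With 2 libraries a group, an exact permutation test of a single ratio cannot go below p = 0.333 (two-sided).

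The ratio of WWTR1 to YAP1 was not called changed. WWTR1 had 0.268 and 0.282 of the CPM of YAP1 in the control libraries and 0.279 and 0.278 in the siAARS1 libraries. These values overlap, and the change of the log2 ratio was 0.02 with a 95% interval from -0.14 to 0.17 (adjusted p = 0.865 by limma; exact permutation p = 1). After the transcript correction WWTR1 was lower relative to YAP1 (-0.32, adjusted p = 4.30e-06).

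TEAD1 rose relative to each gene it was compared with. Its CPM was 0.334 and 0.330 of that of YAP1 in the control libraries and 0.816 and 0.774 in the siAARS1 libraries, a change of the log2 ratio of 1.24 (SE 0.072, adjusted p = 8.52e-21 by limma). Relative to WWTR1 the change was 1.23 (SE 0.091, adjusted p = 7.48e-40). Against TEAD1, the log2 ratio of TEAD2 fell by 1.69, that of TEAD3 fell by 1.91, that of TEAD4 fell by 1.55 and that of VGLL4 fell by 1.68, with adjusted p-values of at most 3.37e-22. The size of these changes depended on the processing. After the transcript correction, the change of the log2 ratio of TEAD1 was 0.63 to YAP1 and 0.95 to WWTR1, and that of TEAD2, TEAD3 and VGLL4 over TEAD1 was -0.26, -0.47 and -0.39. That of TEAD4 over TEAD1 was -0.09 (adjusted p = 0.159), so its call was lost there, while the other 5 stayed called in each of the 13 fits of the pairs.

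The other TEAD paralogs fell relative to YAP1, with changes of the log2 ratio of -0.45 (TEAD2), -0.67 (TEAD3) and -0.31 (TEAD4), with adjusted p-values of at most 0.000252. The direction of these 3 ratios turned after the transcript correction, to 0.38, 0.16 and 0.55. Among the GC-rich genes, TEAD4 rose relative to TEAD3 by 0.36 (SE 0.068, adjusted p = 3.47e-07), from 1.502 and 1.405 times its CPM in the control libraries to 1.84 and 1.92 times in the siAARS1 libraries, and this held in all 13 fits (0.31 to 0.46). TEAD3 over TEAD2 changed by -0.22 (adjusted p = 0.0153), a call that was lost without control replicate 1 or 2 (adjusted p = 0.0848 and 0.0868). VGLL4 over TEAD3 rose by 0.23 (adjusted p = 0.00107), and that call was lost without control replicate 2 (adjusted p = 0.0531) and after the transcript correction (0.082, adjusted p = 0.219). TEAD4 over TEAD2 gave 0.14 (95% interval 0.00 to 0.28, adjusted p = 0.0723), and VGLL4 over TEAD2 gave 0.01 (95% interval -0.13 to 0.15, adjusted p = 0.880).

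Levels of different genes were compared per kilobase of merged exons. In the control libraries TEAD2 (22.8 ± 0.810), TEAD4 (21.8 ± 0.270) and YAP1 (21.0 ± 0.491 CPM per kb, SD, n = 2 each) were close together at the top, with library values that did not overlap but all lay within 20.7 to 23.4. They were followed by TEAD3 (11.2 ± 0.387), VGLL4 (7.41 ± 0.160), WWTR1 (4.33 ± 0.251) and TEAD1 (4.27 ± 0.059). The values of WWTR1 and TEAD1 overlapped, so their order was not resolved. In the siAARS1 libraries YAP1 was first (24.3 ± 1.10), and TEAD1 (11.8 ± 0.083) had passed TEAD3 (8.03 ± 0.172), VGLL4 (6.29 ± 0.282) and WWTR1 (5.07 ± 0.221). By the length of the longest coding transcript, TEAD4 was above TEAD2 in the control libraries and VGLL4 was above TEAD3 in both groups, while TEAD1 was again last in the control libraries and again above TEAD3, VGLL4 and WWTR1 in the siAARS1 libraries.

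Among the 4 TEAD genes, TEAD1 made up 7.13% and 7.10% of the summed CPM per kb in the control libraries and 19.8% and 20.1% in the siAARS1 libraries, a gain of 12.8 percentage points. The share of TEAD2 went from 38.0% ± 0.725 to 32.4% ± 0.684, that of TEAD3 from 18.6% ± 0.338 to 13.5% ± 0.20 and that of TEAD4 from 36.3% ± 1.04 to 34.1% ± 0.610 (SD, n = 2 each). The sum itself overlapped between the groups, with 59.4 and 60.8 CPM per kb in the control libraries and 59.6 and 59.0 in the siAARS1 libraries. Summed without regard to length, the TEAD genes had 196 ± 3.58 CPM in the control libraries and 249 ± 0.741 CPM in the siAARS1 libraries. The gain of TEAD1 was 1.71 percentage points after the transcript correction and 7.93 and 7.66 after the region corrections. The direction of TEAD4 turned, with a share 2.88, 0.079 and 0.98 percentage points higher after these 3 corrections. No test was run on shares.

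**Figure D4:**
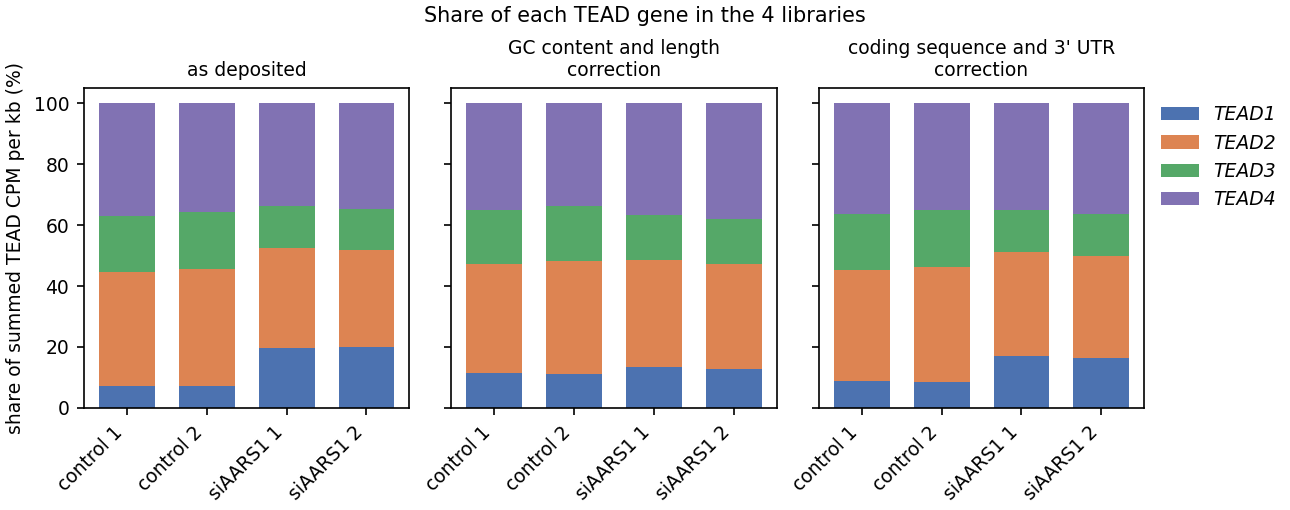
Share of TEAD1, TEAD2, TEAD3 and TEAD4 in their summed CPM per kb (%), in each library, from values as deposited (left), after the transcript correction (middle) and after the first region correction (right). The share of TEAD1 is higher in both siAARS1 libraries in each panel, from a mean of 7.11% to 19.9%, 11.3% to 13.0% and 8.72% to 16.7%.

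Genes with the pattern most like that of TEAD1, YAP1 or WWTR1 were ranked by the Euclidean distance between the centred log2(CPM + 1) values over the 4 libraries, among the 9853 genes that averaged 10 CPM or more. Nearest to TEAD1 were RNF20 (distance 0.021, log2 fold change 1.43), PCDH17 (0.026 and 1.43) and FAM175B (0.034 and 1.42). Nearest to YAP1 were HPRT1 (0.015), INTS4 (0.018) and LIX1 (0.018), and nearest to WWTR1 were PDGFRA (0.0090), HIPK2 (0.0097) and COX11 (0.016). With 4 libraries in 2 groups, such a distance mostly reflects the size of the change.

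The kinase cassette upstream, which restrains YAP and TAZ, was mixed. Of 20 genes of the cassette and its activators 19 were listed and tested, and MAP4K1 was not listed. Of the 19, 13 rose, 5 fell and 1 did not pass. The median log2 fold change was 0.56 beside -0.05 over all genes tested, of which 32.6% rose and 38% fell. The largest rise was in TAOK1, a kinase that activates the cassette, from 18.9 to 121 CPM (log2 fold change 2.62, SE 0.057, adjusted p = 1.02e-19). It was 1.20 and 1.58 after the transcript and the first region correction. LATS1 and LATS2, the kinases that phosphorylate YAP and TAZ directly, went in opposite directions, 1.35 (adjusted p = 4.21e-11) and -0.42 (adjusted p = 0.000165). The value of LATS1 was 0.11 to 0.13 after the 3 corrections, and that of LATS2 was -0.67 to -0.27. The largest fall was in MAP4K2, another activating kinase, from 45.9 to 25.2 CPM (log2 fold change -0.84, SE 0.062, adjusted p = 8.56e-11). MAP4K2 had -0.62 and -0.81 after the transcript and the first region correction. After the transcript correction 6 rose, 6 fell and 7 did not pass, and the median was 0.02. Over all 13819 genes tested in that fit, 4400 rose and 4720 fell. After each region correction 6 rose and 9 fell, with a median of -0.16. Over all genes, 4283 of 12192 rose and 4522 fell in the first, and 4297 of 12221 rose and 4537 fell in the second.

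Among 15 genes of proteins that hold YAP and TAZ in the cytoplasm or mark them for degradation, 6 rose, 6 fell and 3 did not pass, and the median was -0.06 beside -0.05 over all genes tested. Over all genes tested, 32.6% rose and 38% fell. BTRC, a subunit of the ubiquitin ligase that acts on phosphorylated YAP, had the largest rise (0.32, SE 0.054, adjusted p = 1.68e-05), but it was 0.04 after the transcript correction and turned to -0.11 and -0.05 after the region corrections. AMOTL2, an angiomotin that binds YAP and is also a target gene of YAP, had the largest fall (-0.84, SE 0.070, adjusted p = 6.65e-10). It was -0.57 and -0.65 after the transcript and the first region correction. After the transcript correction 1 rose and 7 fell, and after the region corrections 5 and 4 rose and 7 and 6 fell (14 genes in the first and 15 in the second). Over all genes, 4400 of 13819 rose and 4720 fell after the transcript correction. After the region corrections 4283 of 12192 and 4297 of 12221 rose, and 4522 and 4537 fell.

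Of 25 other nuclear partners and competitors, 21 were tested, of which 9 rose, 9 fell and 3 did not pass, with a median of 0.06 beside -0.05 over all genes tested (32.6% rose and 38% fell). The coactivator NCOA2 had the largest rise, from 48.0 to 175 CPM (log2 fold change 1.84, SE 0.046, adjusted p = 8.20e-19). It was 1.07 and 1.15 after the transcript and the first region correction. FOS, a subunit of AP-1, which occupies many enhancers together with TEAD, had the largest fall, from 7.45 to 1.80 CPM (-1.60, SE 0.132, adjusted p = 5.67e-10). The 5 AP-1 genes tested in this list, chosen for mention after their values were seen, were called lower (FOS, JUN, JUNB, JUND and FOSL2), as were 38% of all genes tested, and JUN had a log2 fold change of -0.97 (adjusted p = 2.52e-09). After the transcript and the first region correction the log2 fold change was -1.40 and -1.34 for FOS and -0.71 and -0.54 for JUN. It was -0.34 and -0.16 for JUNB, -0.28 and -0.16 for FOSL2 and -0.17 and -0.12 for JUND. Of the 21 genes 8 rose and 9 fell after the transcript correction, whereas 4 rose and 11 or 12 fell after the region corrections, with medians of -0.06, -0.12 and -0.14. Over all genes, 4400 of 13819 rose and 4720 fell after the transcript correction. After the region corrections 4283 of 12192 and 4297 of 12221 rose, and 4522 and 4537 fell.

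Among 22 target genes of YAP, TAZ and TEAD 20 were tested, 12 fell, 6 rose and 2 did not pass, with a median of -0.37 beside -0.05 over all genes tested, of which 38% fell and 32.6% rose. LATS2, AMOTL2 and PTPN14 are in this list and also in a list above, so each counts in both. CTGF (also CCN2), a secreted matrix protein, had 8.39 and 8.64 CPM in the controls and 2.17 and 2.497 CPM with siAARS1, 27.4% of the control mean (log2 fold change -1.51, SE 0.125, adjusted p = 5.54e-10). CYR61 (also CCN1), a related matrix protein, had 29.7 and 31.2 CPM in the controls and 14.8 and 13.1 CPM with siAARS1 (-1.08, SE 0.079, adjusted p = 7.11e-11). The siAARS1 values of both genes lay below both controls. After the transcript and the first region correction the log2 fold change was -1.34 and -1.28 for CTGF and -0.91 and -0.90 for CYR61. Among the target genes that averaged 5 CPM or more in the higher group, ASAP1 had the largest rise, from 53.5 to 87.1 CPM (0.69, SE 0.050, adjusted p = 5.67e-11), which was 0.22 after the transcript correction. Below that level RBMS3, chosen after its values were seen, rose more, from 2.15 to 4.74 CPM (0.86, SE 0.140, adjusted p = 1.21e-05), and it was -0.39 after the transcript correction. After each of the 3 corrections 14 of the 20 genes fell and 2 to 4 rose, with medians from -0.42 to -0.35 beside -0.02 to -0.01 over all genes. Over all genes, 4720 of 13819 fell and 4400 rose after the transcript correction. After the region corrections 4522 of 12192 and 4537 of 12221 fell, and 4283 and 4297 rose.

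**Figure D5:**
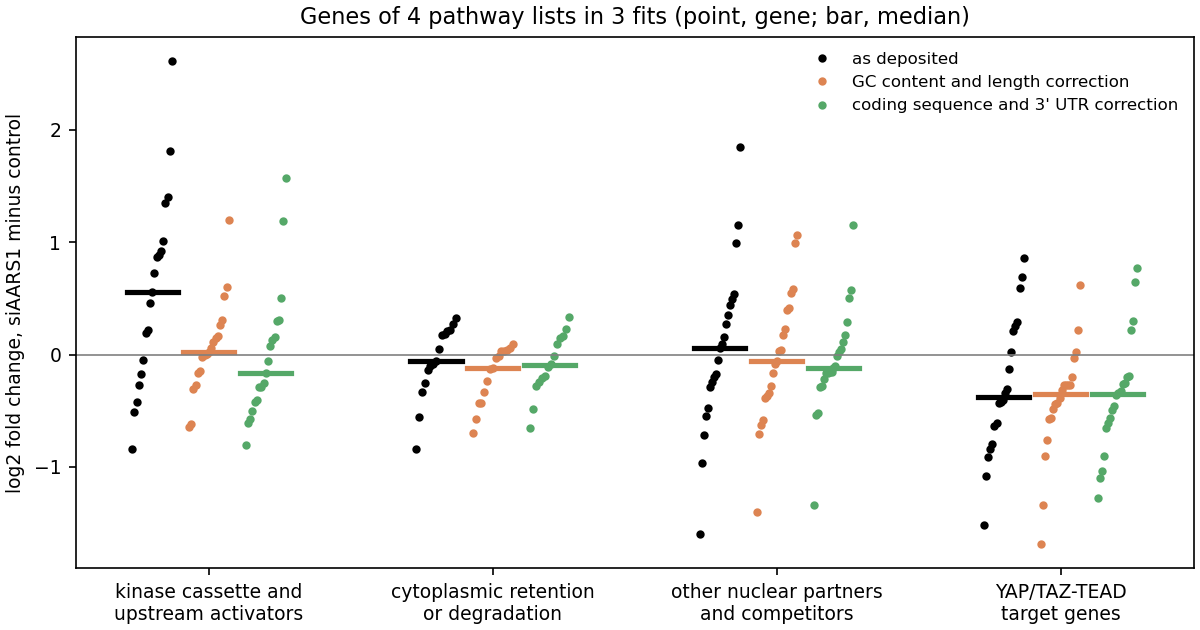
Log2 fold change (siAARS1 minus control) of each tested gene (points) of 4 lists around YAP, TAZ and TEAD, with bars at the list medians, for values as deposited (black), after the transcript correction (orange) and after the first region correction (green). The median of the kinase cassette list moves from 0.56 to 0.02 and -0.16, and that of the target genes stays at -0.37, -0.35 and -0.35.

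A promoter window was available from RefSeq for 5 of the 7 genes (11 windows of 300 bases, 250 before and 50 after a start site, GRCh38.p14), and the letters GGAATG, the core of the TEAD motif, were searched on both strands. Of 35116 windows in the whole table, 14.03% held them. TEAD1 and TEAD4 had no window, so they were not searched. Among the windows of the other members 1 did, that of YAP1, with the letters 162 bases before the start site. The window is shown with these letters in capitals (chr11:102110197-102110496, plus strand).
YAP1 promoter: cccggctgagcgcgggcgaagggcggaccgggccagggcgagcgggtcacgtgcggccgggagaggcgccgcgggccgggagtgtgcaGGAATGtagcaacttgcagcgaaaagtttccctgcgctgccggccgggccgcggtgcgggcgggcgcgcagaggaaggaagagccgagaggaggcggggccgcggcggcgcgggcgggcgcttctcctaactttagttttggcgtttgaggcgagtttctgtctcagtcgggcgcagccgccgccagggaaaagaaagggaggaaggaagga
The match is a description of the letters in this window.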

How the data were processed

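The authors deposited 1 table of CPM values for 4 libraries of HGC27. Per the submitters' processing notes RSEM 1.3.3 and hg38 were used, with no role or order given, and the counting, its use of strand and the scaling of the CPM are not given in the sources used here. For 100% of the values the deposited CPM was a whole multiple of the value of 1 read (within 0.05 of a read plus the rounding of the table), which gave reads per library. One read equalled 0.0293 to 0.0324 CPM. The upper limit that 0 reads allow, 3 reads, equalled 0.0880 to 0.0971 CPM, for counting error only.

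Groups and replicate numbers come from the sample titles. The members, gene lists and tests were chosen with earlier results of these data known. The main test was limma 3.58.1 (R 4.3.3, moderated with a trend) of siAARS1 against control on log2(CPM + 1), over the 14199 genes that averaged 1 CPM or more in a group, which all 7 members passed. P-values were adjusted over all genes tested (threshold 0.05). Fold changes on the log2(CPM + 1) scale understate changes of low genes. Nothing says that the 2 libraries of a group came from separate cultures, so p-values measure the spread between these libraries, which may be technical. Replicates differed by more than sampling noise (chi-square per gene 3.63 and 3.62). The named genes were the members, AARS, CTGF, CYR61, and from each pathway list the called gene with the largest rise and the largest fall among those with at least 5 CPM in the higher group and groups that do not overlap. LATS1, LATS2, RBMS3, JUN and the other AP-1 genes, CD37 and ATG7 were named after their values were seen.

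Transcript length, GC content, coordinates and coding sequences came from GENCODE 29 (GRCh38), matched by gene identifier (GC content for 97.2% of genes, coding sequence for 85.7%). The transcript and region corrections used mgcv 1.9.3, with the trend learned on genes that averaged 5 CPM or more. The region corrections were added after the data were seen. A biological change that tracks GC content or length is removed along with the rest. Recovered reads were tested with edgeR 4.0.16 (quasi-likelihood, TMM) and DESeq2 1.42.0. Scripts were tested on simulated data. No column of another sample was in the table.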

Additional observations from a re-analysis of the deposited data

How the results depend on the processing

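Of 16 fits of the 7 genes and 13 of the 20 pairs, TEAD1 and 6 pairs were called in 1 direction throughout (TEAD1 over YAP1 and WWTR1; TEAD2, TEAD3 and VGLL4 over TEAD1; TEAD4 over TEAD3). The share of all genes, or of all ratios to a reference, that did so was not counted, so these counts have no background. All fits draw on the same 4 libraries. The count of called genes, 10032, was 8355 to 11378 under the alternatives, with 9806 by edgeR and 8355 by DESeq2 on recovered reads. Rises made up 46.2% of the calls, but 29.7% with median scaling, where the median change over all genes tested was -0.26 on the log2 scale, and 37.0% (median -0.15) with quantile normalization. Median scaling gave -0.020 for YAP1, -0.0013 for WWTR1 and -0.33 for TEAD4. Quantile normalization gave 0.055 for WWTR1, -0.24 for TEAD4, -0.15 for WWTR1 over YAP1 and -0.020 for VGLL4 over TEAD2. The transcript correction, with or without the replicate block, gave -0.31 for YAP1, -0.63 for WWTR1, 0.066 for TEAD2, 0.24 for TEAD4 and -0.065 for VGLL4. For the change of the log2 ratio to YAP1 it gave -0.32 (WWTR1), 0.38 (TEAD2), 0.16 (TEAD3), 0.55 (TEAD4) and 0.24 (VGLL4). For that to WWTR1 it gave 0.70 (TEAD2), 0.48 (TEAD3), 0.87 (TEAD4) and 0.57 (VGLL4). In the main fit these ratios to WWTR1 were called lower, at -0.47, -0.68, -0.33 and -0.45, as was VGLL4 over YAP1 (-0.44). The transcript correction also gave -0.087 for TEAD4 over TEAD1, 0.17 for TEAD4 over TEAD2, -0.13 for VGLL4 over TEAD2 and 0.082 for VGLL4 over TEAD3. The first and second region corrections gave 0.19 and 0.18 for TEAD2, -0.094 and -0.090 for TEAD3, 0.32 and 0.37 for TEAD4, and 0.30 and 0.18 for VGLL4, and the second gave 0.038 for YAP1. For ratios to YAP1 they gave 0.088 and 0.14 (TEAD2), 0.22 and 0.33 (TEAD4) and 0.19 and 0.15 (VGLL4), and the second gave -0.13 (TEAD3). For ratios to WWTR1 they gave -0.015 and 0.043 (TEAD2), 0.12 and 0.23 (TEAD4) and 0.091 and 0.044 (VGLL4), and the second gave 0.19 for TEAD4 over TEAD2. The gain in the TEAD1 share was 26.3 percentage points without length, 1.71 after the transcript correction and 7.93 and 7.66 after the region corrections, and the share of TEAD4 rose by 2.88, 0.079 and 0.98 points in these. For the differences between these corrections the cause was not tested.

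Leaving out 1 library at a time gave 0.16 to 0.28 for WWTR1, -0.019 to 0.049 for WWTR1 over YAP1, -0.22 to -0.21 for TEAD3 over TEAD2, -0.044 to 0.071 for VGLL4 over TEAD2 and 0.17 to 0.29 for VGLL4 over TEAD3. Where a group keeps 1 library, it is assumed to vary like the other group. The replicate block alone changed no call of the 7 genes or 20 pairs and gave 10389 called genes. Deviations of same-numbered libraries correlated with r = 0.118 across genes, and the labels do not say that a number marks a shared culture, so the block is no paired design. The lowest count of a member in a library was 767 reads.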
